A study of Mus musculus with 6 samples.

Results

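The TNF receptor superfamily genes examined here are 10 receptors that T cells can carry: Fas, Tnfrsf10b, Tnfrsf1a, Tnfrsf25, Cd27, Tnfrsf4, Tnfrsf18, Tnfrsf9, Tnfrsf1b and Tnfrsf8. They were taken from a list of gene names, and their Ensembl identifiers were matched to mouse symbols, which found all 10 among 41388 listed genes. RNA-Seq compared 3 wild-type (WT) with 3 Irf1-/- cultures, to ask which transcripts depend on IRF1, a transcription factor induced by interferon, in Th9 cells exposed to IFN-γ. Th9 cells are CD4+ T helper cells that make IL-9. All 6 cultures came from mice on a C57BL/6 background, from animals of 8 to 12 weeks. Naive CD4+ T cells of spleen and lymph nodes were primed with antibodies to CD3 and CD28 and kept for 2 days with IL-2, IL-4 and TGF-β, the Th9 conditions, plus rat IFN-γ at 5 ng per ml, and the study's priming medium also held an antibody to mouse IFN-γ. By the labels the groups differed in genotype alone, and every culture had IFN-γ. The Irf1-/- mice carried the allele in all cells, so that the T cells had also developed without intact Irf1. The values are normalized counts, that is, reads per gene scaled by the library's size factor. Where a group of cells is measured in bulk, fewer cells carrying a receptor and less of its RNA per cell cannot be told apart.

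Receptors of this superfamily are membrane proteins with cysteine-rich repeats that bind trimeric ligands, most of them carried on other cells. One branch holds a death domain inside the cell, through which Fas and the TRAIL receptor can recruit FADD and caspase-8 and start apoptosis. The other branch has no death domain, recruits TRAF proteins, activates NF-κB and acts on T cells mainly as costimulation after antigen recognition.

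Reads on genes numbered between 5639788 and 13348230 per library, with replicate 3 the largest of each genotype. A count of 3 reads corresponded to between 1.84 and 4.16 normalized counts. Irf1 itself stood between 2660 and 2968 in WT cells and between 1476 and 1780 in the Irf1-/- libraries (-0.78 on the log2 scale, adjusted p = 7.3e-05), so that its reads were lower but not absent. WT replicates 1 and 2 carried Y-linked transcripts, whereas WT replicate 3 and all 3 Irf1-/- libraries had Xist at 16973 or more. Replicates 1 and 2 of a genotype lay much closer to each other than to replicate 3, with a chi-square per degree of freedom of 1.28 in WT and 1.82 in Irf1-/- cells, against 5.85 to 7.21 for pairs with replicate 3. The paper's legend calls the samples independent, but if replicates 1 and 2 shared a source, the p-values measure partly technical spread. Values with a Y-linked covariate and with replicates 1 and 2 averaged are therefore given for the receptors that passed the test. With the covariate, the genotype difference rests mainly on WT replicate 3 against the Irf1-/- libraries, which limits it as a check. The paper describes its mice as matched for sex and age. Of 9 T cell markers, Cd3e was lower (means of 1624 and 1317, adjusted p = 0.0053) and Thy1 was higher (1533 and 2979, adjusted p = 0.0027). The sum of all 9 was 17873 to 18414 in WT and 18430 to 19446 in Irf1-/- libraries, without overlap. Those of B cells reached 37.4 at most, and 3 NK cell markers were at 0.

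Of the 10 receptors, 3 were lower in Irf1-/- cells at an adjusted p below 0.05 and 0 were higher, namely Fas, Cd27 and Tnfrsf10b. Among all 11379 genes tested, 23.7% passed the same test, with 12.4% of all genes lower and 11.4% higher, so that 3 of 10 is near the share over all genes. The median log2 fold change of the receptors was 0.09, beside -0.00 over all genes. The other 7 receptors all had values above 0, with a median of 0.18, and none of them passed. That median leaves out the receptors called lower and so depends on the calls. The smallest of the 7 values, 0.0038 for Tnfrsf1b, fell below 0 in some alternative fits. The groups did not overlap for 5 receptors, against 40.5% of all genes tested. In 3 against 3 samples an exact two-sided permutation test cannot give a p below 0.1, so that the calls rest on the fit across all genes.

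**Figure D1:**
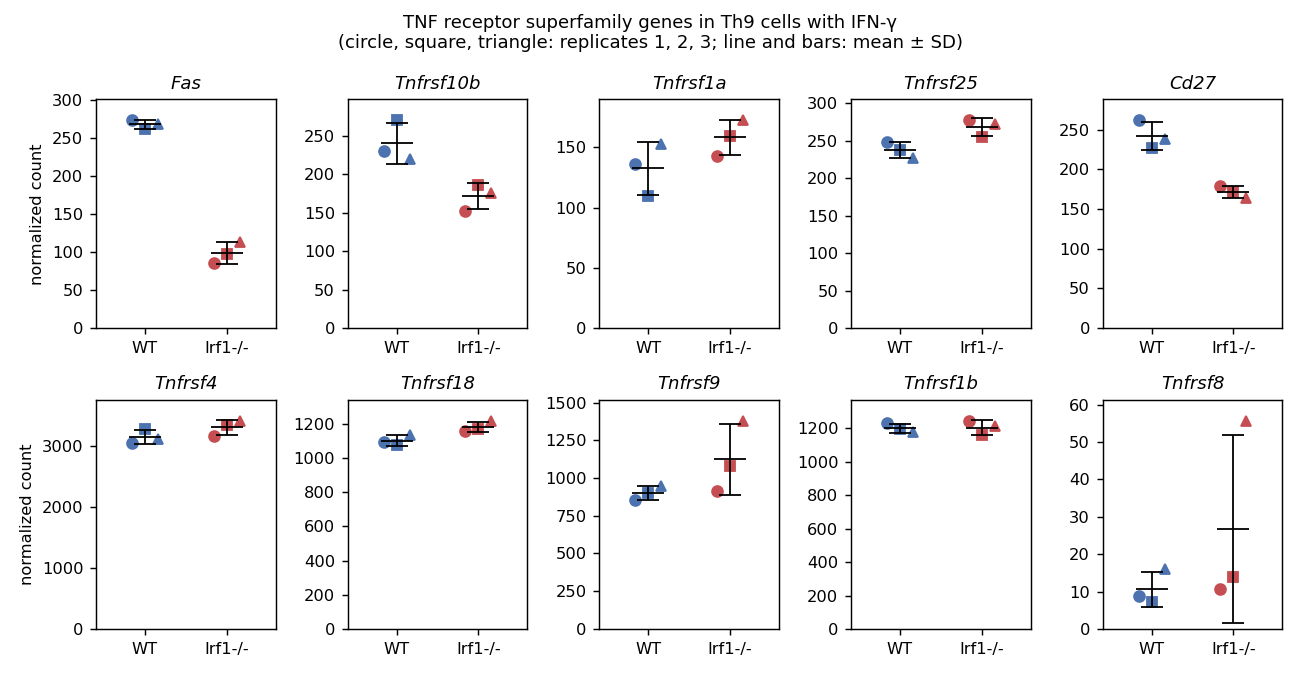
Normalized counts of each receptor in the 3 WT (blue) and 3 Irf1-/- (red) cultures, on a linear axis from 0, with the symbol giving the replicate and the line and bars the mean ± SD. Fas stands at 262 to 273 in WT and at 86.0 to 114 in Irf1-/- cells, and Tnfrsf8 is drawn apart by Irf1-/- replicate 3 at 55.6.

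Fas (ENSMUSG00000024778), the receptor of Fas ligand that triggers apoptosis of activated T cells, differed most. It lies on the plus strand at chr19:34290666-34327772 of GRCm38. WT replicates 1, 2 and 3 had 273, 262 and 268 normalized counts. Irf1-/- replicates 1, 2 and 3 had 86.0, 97.1 and 114. The lowest WT value was above the highest Irf1-/- value, and the WT samples varied little. The means were 268 ± 5.62 and 98.9 ± 14.0 (SD, n = 3 each), so that 36.9% of the WT level remained. On the scale of log2(normalized count + 1) the fold change was -1.44 (95% interval -1.70 to -1.18, standard error 0.118, adjusted p = 2.72e-05). Fas passed in all 19 alternative fits, and was -1.46 with the Y-linked covariate (adjusted p = 8.13e-06) and -1.38 with replicates 1 and 2 averaged (adjusted p = 0.00507). Replicate 3 alone, in which both libraries had Xist, gave -1.23.

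The stretches before the start sites are shown for Fas and Cd27, which passed the test in every fit, and for Tnfrsf1b, whose values lay closest to no difference. They are 250 bases upstream of each RefSeq start in GRCm38.p6, read along the gene's own strand, with matches to AANNGAAA on either strand in capitals. AANNGAAA is the core of an interferon-stimulated response element, the kind of sequence that IRF proteins bind. Fas lies at chr19:34290409-34290658 on the plus strand, Cd27 at chr6:125237028-125237277 on the minus strand and Tnfrsf1b at chr4:145246871-145247120 on the minus strand.
Fas: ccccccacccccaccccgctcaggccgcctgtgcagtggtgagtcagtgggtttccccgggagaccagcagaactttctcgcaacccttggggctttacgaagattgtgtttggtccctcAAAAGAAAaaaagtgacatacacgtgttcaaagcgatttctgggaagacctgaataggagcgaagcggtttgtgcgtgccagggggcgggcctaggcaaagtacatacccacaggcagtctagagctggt
Cd27: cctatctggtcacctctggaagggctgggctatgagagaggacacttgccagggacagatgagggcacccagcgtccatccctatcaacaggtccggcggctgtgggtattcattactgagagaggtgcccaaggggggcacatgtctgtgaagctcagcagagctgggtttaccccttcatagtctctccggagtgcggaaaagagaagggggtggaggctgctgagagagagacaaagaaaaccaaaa
Tnfrsf1b: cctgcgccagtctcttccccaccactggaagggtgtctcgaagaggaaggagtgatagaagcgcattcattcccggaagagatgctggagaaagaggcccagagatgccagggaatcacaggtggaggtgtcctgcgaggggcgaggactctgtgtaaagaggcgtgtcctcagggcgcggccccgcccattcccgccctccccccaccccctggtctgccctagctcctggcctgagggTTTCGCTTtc
The table held windows for 9 of the 10 receptors, all but Tnfrsf10b, with 11 windows in all, since Tnfrsf9 and Tnfrsf25 had more than 1. AANNGAAA occurred in 4 of these 11 windows, 1 each of Fas, Tnfrsf4, Tnfrsf9 and Tnfrsf1b, and in 21.3% of all 32851 mouse windows. Of the receptors that passed the test, the Fas window held it, the Cd27 window did not, and Tnfrsf10b was not searched. A longer form, GAAA repeated after any 2 bases and found in 2.98% of all windows, was present among the receptors only before Tnfrsf1b, 10 bases from its start and overlapping the shorter match. The Cd27 window did not hold the longer form either. A match is a description of the letters and not a measured binding site.

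Tnfrsf10b (ENSMUSG00000022074, chr14:69767472-69784411, plus strand) encodes the mouse receptor for TRAIL, the ligand named Tnfsf10, and also signals through a death domain. Its normalized counts were 231, 270.5 and 219 in WT replicates 1, 2 and 3. They were 153, 186 and 176 in Irf1-/- replicates 1, 2 and 3. The groups did not overlap, and the Irf1-/- mean of 171 ± 16.9 was 71.4% of the WT mean of 240.3 ± 26.8 (SD, n = 3 each). The log2 fold change was -0.48 (95% interval -0.74 to -0.23, adjusted p = 0.0120). This call was less firm than that of Fas, since it was lost with the Y-linked covariate (-0.38, adjusted p = 0.0576), without WT replicate 2 (-0.40, adjusted p = 0.0593), without Irf1-/- replicate 1 (-0.40, adjusted p = 0.0509) and with replicates 1 and 2 averaged (-0.44, adjusted p = 0.0744).

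The remaining death domain receptors were not lower. Tnfrsf1a (ENSMUSG00000030341, chr6:125349362-125362484, plus strand) encodes TNFR1, through which TNF can lead to NF-κB activation or to cell death. It had 136, 109 and 153 normalized counts in WT and 143, 159 and 173 in Irf1-/- replicates 1, 2 and 3, and the groups overlapped. The log2 fold change was 0.26 (95% interval -0.05 to 0.57, adjusted p = 0.202). Tnfrsf25 (ENSMUSG00000024793, chr4:152115934-152120119, plus strand) encodes DR3, the receptor of the ligand TL1A. It had 248, 237 and 227 in WT against 277, 255 and 272 in Irf1-/- cells, without overlap, and a log2 fold change of 0.18 (95% interval -0.01 to 0.36, adjusted p = 0.161).

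Cd27 (ENSMUSG00000030336, chr6:125232622-125237010, minus strand), the costimulatory receptor of CD70 that is present on naive T cells, was the only TRAF-binding receptor of the 6 to pass. The WT replicates 1, 2 and 3 had 262, 227 and 238 normalized counts. The Irf1-/- replicates had 179, 172 and 164. The values did not overlap, with means of 243 ± 17.8 and 172 ± 7.75 (SD, n = 3 each), or 70.7% of WT. The log2 fold change was -0.50 (95% interval -0.71 to -0.28, standard error 0.0956, adjusted p = 0.00452), and all 19 alternative fits called it lower. It was -0.47 with the Y-linked covariate (adjusted p = 0.0138) and -0.51 with replicates 1 and 2 averaged (adjusted p = 0.0432). Of 8 naive T cell markers, 5 were lower and 1 was higher in Irf1-/- cells, beside 12.4% lower and 11.4% higher over all genes. Without a trend, and with replicates 1 and 2 averaged, 3 of these markers passed, 2 lower and 1 higher. Their summed level was 12092 to 13360 in WT and 9856 to 11009 in Irf1-/- cells, and their part in the Cd27 value was not tested. Cd27 shares 129 exon bases with Mir8113, which had no reads.

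Tnfrsf4 and Tnfrsf18 are neighbours on chromosome 4, 9551 bases apart, and encode OX40 and GITR, costimulatory receptors induced on activated T cells and abundant on regulatory T cells. Tnfrsf4 (ENSMUSG00000029075, chr4:156013843-156016612, plus strand) had 3044, 3264 and 3108 normalized counts in WT and 3162, 3344 and 3401 in Irf1-/- replicates 1, 2 and 3. Its log2 fold change was 0.07 (95% interval -0.04 to 0.19, adjusted p = 0.350). The groups overlapped. Tnfrsf18 (ENSMUSG00000041954, chr4:156026164-156028895, plus strand) had 1097, 1076 and 1137 in WT and 1161, 1173 and 1217 in Irf1-/- cells. Its groups did not overlap, but the log2 fold change was 0.10 (95% interval -0.02 to 0.22, adjusted p = 0.207), and it passed only after quantile normalization (0.17, adjusted p = 0.033). Tnfrsf18 shares 414 exon bases with the antisense gene Gm16008, listed at 24.0 in WT and 29.0 in Irf1-/- cells, and whether counting used strand is not given in the sources used here.

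Tnfrsf9 (ENSMUSG00000028965, chr4:150914562-150946102, plus strand) encodes 4-1BB, a costimulatory receptor that appears after T cell activation. It had 856, 900.4 and 947 normalized counts in WT and 916, 1082 and 1378 in Irf1-/- replicates 1, 2 and 3. Irf1-/- replicate 1 lay within the WT range, while replicate 3 stood well above every other library. The log2 fold change was 0.30 (95% interval 0.04 to 0.57, adjusted p = 0.0962). The call depended on the setting, since, among fits without a replicate block, DESeq2 (0.33, adjusted p = 0.0362), the fit without Irf1-/- replicate 1 (0.44, adjusted p = 0.0215) and that of replicates 1 and 2 only (0.18, adjusted p = 0.0277) passed. Without Irf1-/- replicate 3 it was 0.14 (adjusted p = 0.223).

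Tnfrsf1b and Tnfrsf8 also lie side by side on chromosome 4, 20266 bases apart. Tnfrsf1b (ENSMUSG00000028599, chr4:145213463-145246870, minus strand) encodes TNFR2, the TNF receptor without a death domain. It had 1232, 1194 and 1179.6 normalized counts in WT and 1244, 1158 and 1214 in Irf1-/- replicates 1, 2 and 3. These values interleaved, and the log2 fold change was 0.00 (95% interval -0.12 to 0.13, adjusted p = 0.971). Tnfrsf8 (ENSMUSG00000028602, chr4:145267137-145315164, minus strand) encodes CD30, a receptor of activated lymphocytes. It was near the limit of detection, with 8.74, 7.21 and 15.98 in WT and 10.7, 13.9 and 55.6 in Irf1-/- cells, from 6 to 87 reads. Its log2 fold change of 0.95 (95% interval -0.26 to 2.16, adjusted p = 0.238) rested on Irf1-/- replicate 3, without which it was 0.26 (adjusted p = 0.717).

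**Figure D2:**
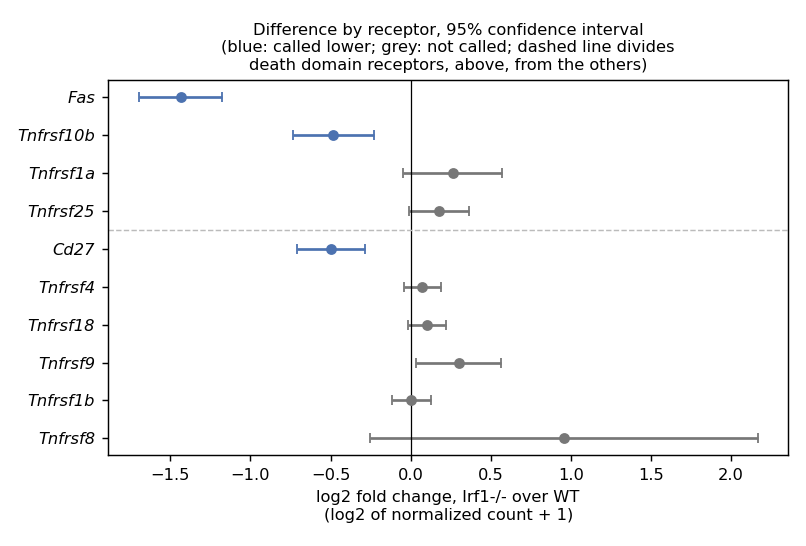
Log2 fold change of Irf1-/- over WT for each receptor (points) with its 95% confidence interval (bars), on the log2(normalized count + 1) scale, death domain receptors above the dashed line. Fas at -1.44 lies apart from Tnfrsf10b at -0.48 and Cd27 at -0.50, and the other receptors lie at or above 0.

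By position, 6 of the receptors lie on chromosome 4 and 4 elsewhere. Cd27 and Tnfrsf1a, 112351 bases apart on chromosome 6, lay on opposite sides of 0.

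Divided by exon length, the receptors covered a wide range of levels. Tnfrsf4 had 2299 ± 82.9 normalized counts per kb of exon in WT and 2419 ± 91.6 in Irf1-/- cells (SD, n = 3 each), and made up 56.0% and 56.7% of the sum over the receptors. In WT cells Tnfrsf18 followed at 724, then Tnfrsf9 at 331 and Tnfrsf1b at 315, whose samples overlapped. Fas came next at 130, above Tnfrsf25 and Cd27, both at 104 and overlapping. Tnfrsf1a at 51.3 and Tnfrsf10b at 44.1 overlapped as well, and Tnfrsf8 was lowest at 3.08. In Irf1-/- cells the order from the top down to Tnfrsf1b was the same, and Fas moved from rank 5 to rank 8, at 48.0 per kb, below Tnfrsf25 at 118, Cd27 at 73.7 and Tnfrsf1a at 61.1. The activated T cell receptors Tnfrsf4 and Tnfrsf18 thus led in both genotypes.

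**Figure D3:**
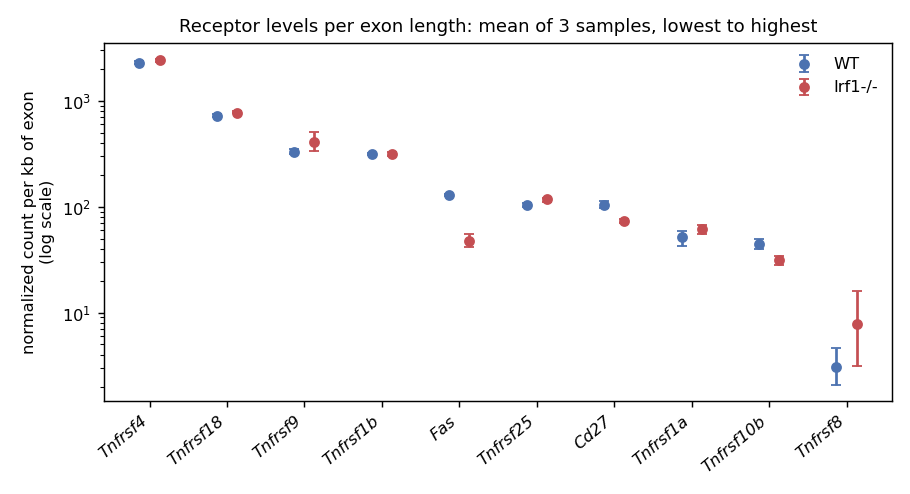
Mean level of each receptor per kb of exon on a log axis, ordered by the WT mean, with bars from the lowest to the highest of 3 samples. Tnfrsf4 leads at 2299 in WT and 2419 in Irf1-/- cells, and Fas falls from 130 to 48.0.

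The ligands of these receptors were listed from general knowledge, but with earlier results of these data known. Among the 10 genes listed, 7 had a mean count high enough for the reported fit. Of these, 2 were lower and 1 was higher, beside 12.4% lower and 11.4% higher over all genes. Their median log2 fold change was -0.09. Tnfsf4, which encodes OX40 ligand, had 169.7, 198 and 143 normalized counts in WT and 57.3, 80.4 and 77.3 in Irf1-/- replicates 1, 2 and 3. Its log2 fold change was -1.24 (adjusted p = 5.9e-04), while its receptor Tnfrsf4 did not pass. Tnfsf8, the CD30 ligand, fell from 3275 ± 244 to 2308 ± 176 (SD, n = 3 each; -0.51 on the log2 scale, adjusted p = 7.8e-04). Lta, which encodes lymphotoxin-α, a ligand of both TNF receptors, rose from 5945 ± 887 to 9848 ± 242 (0.74, adjusted p = 2.6e-04). Tnf had a log2 fold change of -0.08 (adjusted p = 0.466).

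The ligands of Fas and Tnfrsf10b did not pass the test. Fasl had 86.1, 85.4 and 117 normalized counts in WT and 70.4, 80.4 and 126 in Irf1-/- replicates 1, 2 and 3, with a log2 fold change of -0.09 (95% interval -0.56 to 0.39, adjusted p = 0.805). The interval is wide, since replicate 3 was high in both genotypes. Tnfsf10, which encodes TRAIL, gave -0.07 (95% interval -0.42 to 0.29, adjusted p = 0.804), and Tnfsf9, the 4-1BB ligand, gave -0.43 (adjusted p = 0.261), but -0.80 in replicates 1 and 2 only (adjusted p = 0.0356) and 0.31 in replicate 3 only. Cd70, the ligand of Cd27, was too low for the reported fit, with means of 9.98 in WT and 4.56 in Irf1-/- cells. The same held for Tnfsf15, which encodes TL1A, at 8.53 and 4.99. Tnfsf18, the GITR ligand, was at 0 in every library.

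Outside the 10 receptors, 18 further superfamily genes were listed, of which 11 were tested, 1 was lower and 1 was higher. Tnfrsf14, which encodes HVEM, the receptor of LIGHT and a partner of BTLA, fell from 181 ± 18.7 to 66.5 ± 7.91 normalized counts (SD, n = 3 each), a log2 fold change of -1.43 (adjusted p = 6.4e-05), close in size to that of Fas. Tnfrsf13b, which encodes TACI, a receptor of BAFF and APRIL best known from B cells, rose from 493 ± 61.8 to 905 ± 26.9 (0.88, adjusted p = 8e-05). Both calls held in all 19 alternative fits. Over all 28 superfamily genes, 21 were tested, 4 were lower and 1 was higher, near the share of 23.7% over all genes. Tnfrsf17 and Edar had no reads.

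Proteins that act below these receptors were examined with 19 genes, all tested, of which 4 were lower and 1 was higher, near the 23.7% called over all genes. The median log2 fold change was -0.02. Cflar, which encodes c-FLIP, the inhibitor of caspase-8 at Fas and TRAIL receptors, had 1196, 1185 and 1219.5 normalized counts in WT and 784, 813 and 956 in Irf1-/- replicates 1, 2 and 3, without overlap. Its log2 fold change was -0.50 (adjusted p = 0.0012). Cyld, a deubiquitinase that restrains NF-κB signalling, fell from 1182 ± 17.7 to 834 ± 59.7 (SD, n = 3 each; -0.50, adjusted p = 4.3e-04). Ripk3, the kinase of necroptosis, rose from 411 ± 59.7 to 621 ± 42.6 (0.60, adjusted p = 0.0023), but not with replicates 1 and 2 averaged (0.52, adjusted p = 0.0572). Traf5 (-0.35, adjusted p = 0.0413) and Birc3, which encodes cIAP2 (-0.22, adjusted p = 0.0179), were lower by less, and lost the call in 11 and 8 of 19 alternative fits. Fadd and Casp8, which act directly below Fas, did not pass, at 146 ± 19.7 and 881 ± 53.2 in WT against 142 ± 26.9 and 989 ± 56.4 in Irf1-/- cells.

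**Figure D4:**
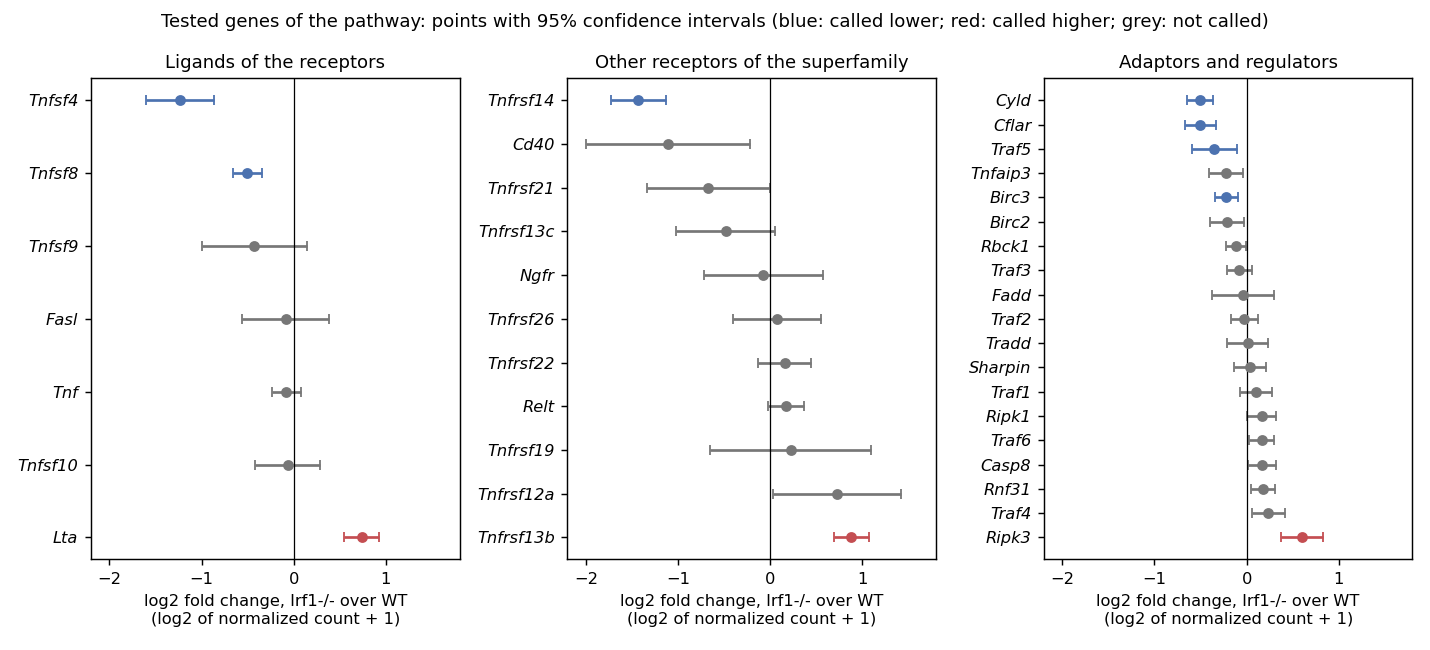
Log2 fold change of Irf1-/- over WT with 95% confidence intervals for every tested ligand, further superfamily receptor and signalling gene, on the log2(normalized count + 1) scale (blue lower, red higher, grey not passed). Tnfrsf14 at -1.43 and Tnfsf4 at -1.24 are the lowest that passed, and Tnfrsf13b at 0.88 and Lta at 0.74 the highest.

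Markers of T cell states were listed for comparison, and some passed the test, against 23.7% of all genes. Of 10 regulatory T cell markers, 4 were higher, 1 was lower and 5 did not pass, with a median log2 fold change of 0.27. Their summed level was 15932 to 20825 in WT and 19223 to 22963 in Irf1-/- cells, so that the groups overlapped. Foxp3, the factor that defines regulatory T cells, was at 182 ± 8.99 in WT and 337 ± 5.91 in Irf1-/- cells (SD, n = 3 each; 0.89 on the log2 scale). Ikzf2, which encodes Helios, another factor of regulatory T cells, went the opposite way, from 1778 ± 237 to 958 ± 119 (-0.89 on the log2 scale). Tnfrsf4 and Tnfrsf18, abundant on such cells, had log2 fold changes of 0.07 and 0.10 beside them. Of 10 activation markers, 4 were lower, 0 were higher and 6 did not pass, with a median of -0.28. Those called lower included Cd44 at -0.67 and Cd69 at -0.47. By sign alone, 6 of the 10 lay below 0 and 4 above. Among the latter were Egr1 at 0.35 and Irf4 at 0.23, which did not pass. The summed levels overlapped, at 31755 to 37196 in WT and 29444 to 33453 in Irf1-/- cells. Myeloid markers summed to between 18.7 and 148 in WT and between 18.5 and 1004 in Irf1-/- cells, the highest in Irf1-/- replicate 2. The part of these cells and states in the receptor values was not tested.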

How the data were processed

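Poly(A) RNA of 6 cultures was sequenced as single-end reads. Per the labels, the authors aligned reads to GRCm38 with STAR 2.4.0b, counted them with featureCounts and used DESeq2 1.12.3. The deposited signal is a normalized count, a read count that the authors scaled by a size factor per library (0.721 to 1.63). Whole reads were recovered for 100% of non-zero values within 0.01. How multi-mapping reads were treated is not given in the sources used here.

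Genotypes were compared in R 4.3.3 with limma 3.58.1 (eBayes with a trend) on log2(normalized count + 1), restricted to 11379 genes whose mean was 10 or more. Benjamini-Hochberg adjustment ran over all of these, at a threshold of 0.05. No set test was run. Alternatives were other pseudocounts, filters and scalings, no trend, a replicate block, a Y-linked covariate, edgeR 4.0.16 and DESeq2 1.42.0 on recovered reads, each library left out, replicates 1 and 2 only and replicate 3 only. Averaging replicates 1 and 2 was added after seeing the data. Scripts were tested on simulated data.

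The members and lists were chosen with earlier results of these data known. Named are all members, Irf1, every ligand, and up to 4 called genes in each direction of every other list. Fadd, Casp8, Tnfrsf17, Edar, Foxp3, Ikzf2, Cd44, Cd69, Egr1, Irf4, Cd3e, Thy1 and Gm16008 were named after their values were seen. Marker lists are given by counts and summed level, with the few genes just named. A further motif searched is not reported here. Promoter windows came from RefSeq, GRCm38.p6, and gene positions from GENCODE M21. The study's ChIP data were left unused.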

Additional observations from a re-analysis of the deposited data

How the results depend on the processing

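Of the 20 settings tried beside the one reported, 19 gave a test. The number of genes that passed, 2699, was 1735 without a trend and 804 with replicates 1 and 2 averaged, and ranged from 1629 to 2807 with a library left out (1638 without WT replicate 1, 1629 without WT replicate 2, 1705 without Irf1-/- replicate 2). The receptors that passed numbered 4 with DESeq2 and with quantile normalization, 2 with the Y-linked covariate or with replicates 1 and 2 averaged, and 2 to 3 with a library left out. Same-numbered replicates were not paired, since their deviations from the group means across genes correlated at 0.092, 0.269 and 0.321, of which the first was under 0.1. Samples of unlike number correlated lower, from -0.31 to 0.084, so that a shared replicate effect remains possible. With a replicate block 4009 genes of all tested passed, and 3905 with replicates 1 and 2 only. With the block 5 receptors passed, Tnfrsf9 (adjusted p = 0.0014) and Tnfrsf8 (adjusted p = 0.042) being added as higher, as did 5 of the further receptors, 11 signalling genes and 9 activation markers. Replicates 1 and 2 only gave 5, 9 and 8 of these. The further receptors numbered 4 without a filter on low values, and 2 to 4 with a library left out, the 4 without WT replicate 3. The signalling genes numbered 8 after quantile normalization, 3 with DESeq2, 2 with replicates 1 and 2 averaged, and 3 to 7 with a library left out, the 3 without replicate 1 or 2 of either genotype. Naive markers that passed numbered 3 without a trend and 3 with replicates 1 and 2 averaged. Values that crossed 0 belonged to genes that did not pass in the reported fit. Tnfrsf1b was -0.015 in replicates 1 and 2 only and -0.019 to 0.032 with a library left out, Tnfsf10 -0.23 to 0.048 and Fasl -0.33 to 0.082. Replicate 3 only gave values without a test, above 0 for Tnfsf9 (0.31), Tnf (0.034), Tnfsf10 (0.032) and Fasl (0.11). The cause of these shifts was not tested. Cd70 and Tnfsf15 were left out of the reported fit by the filter on low values. Without that filter 9 ligands were tested, and 3 passed, with neither Cd70 nor Tnfsf15 among them.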
